A study of Mus musculus with 6 samples.

Results

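Fc gamma receptors bind the constant region of IgG and couple antibody-coated particles to phagocytosis and inflammatory signalling in myeloid cells. The genes described here are the 7 that encode the mouse Fc gamma receptors and ITAM-linked signalling genes of the same cells, namely the activating receptors Fcgr1, Fcgr3 and Fcgr4, the inhibitory receptor Fcgr2b, the adaptors Fcer1g and Tyrobp and the kinase Syk. They were taken by symbol from the 34199 gene symbols of the count tables. All 7 passed the filter on low counts, as did 12460 genes in all.

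The libraries were bulk RNA-seq of iGMPs, a C57Bl/6 mouse line of granulocyte-macrophage progenitors (GMPs) that carries a lysozyme-GFP reporter and is kept in self-renewal by a HOXA9 fusion protein active only with estradiol. All cultures were harvested at 24 h, with 2 libraries per group. In CAF-1 OFF, 500 µM IPTG induced a hairpin RNA that targets Chaf1b, the gene of a CAF-1 subunit (CAF-1 is a chaperone that places histones on newly copied DNA), with estradiol kept at 150 ng/ml. Control cultures received IPTG with the same estradiol. In HOXA9 OFF, estradiol was washed out. The labels do not say whether HOXA9 OFF cultures received IPTG, or which clone of the line each group came from, and differences other than estradiol between HOXA9 OFF and control are therefore possible. The study made separate clones for the Chaf1b hairpin and for a control sequence, so a difference between clones cannot be told apart from CAF-1 suppression in CAF-1 OFF against control. Nothing in the labels says that the 2 libraries of a group came from separate cultures, and p-values then measure only the spread between these libraries.

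Chaf1b stood at 90.0 and 105 CPM (reads scaled to library size and composition) in control, at 17.8 and 12.1 CPM in CAF-1 OFF and at 64.6 and 61.4 CPM in HOXA9 OFF. It was called lower in CAF-1 OFF than in control (log2 fold change -2.71 ± 0.20 SE, edgeR FDR 0.0198) and also lower in HOXA9 OFF than in control, by a smaller amount (-0.63 ± 0.18 SE, edgeR FDR 0.0396). The libraries held 16773560 to 25170898 gene counts. The 8 GMP markers summed to 11587 to 17142 CPM in every library, a sum to which Mpo alone gave 4109 to 8546 CPM. In HOXA9 OFF against control, 4 of the 8 were called lower, Flt3 (-6.05 ± 0.25), Cd34 (-1.86 ± 0.13), Kit (-1.16 ± 0.16) and Ctsg (-0.68 ± 0.12, log2 with SE), and none higher. The other 4 had fitted differences above 0 and were not called, Elane (0.76 ± 0.33), Prtn3 (0.59 ± 0.19), Mpo (0.53 ± 0.22) and Cebpa (0.03 ± 0.24). Of all genes tested, 8.97% were called lower and 13% higher. The 4 markers each of T cells, NK cells and B cells summed to 0.145 to 7.69 CPM, with Cd3e, Cd3g, Ncr1 and Gzma at 0 throughout. The sum of 8 markers of maturing neutrophils was 77.9 and 46.6 CPM in control, 364 and 660 CPM in CAF-1 OFF and 581 and 314 CPM in HOXA9 OFF, and in CAF-1 OFF 332 and 630 CPM of it was Mmp8 alone. The sum of 7 macrophage markers was 45.1 and 23.9 CPM in control, 23.6 and 34.7 CPM in CAF-1 OFF and 396 and 465 CPM in HOXA9 OFF. The 4 mast cell and basophil markers summed to 202 and 165 CPM in control, 586 and 229 CPM in CAF-1 OFF and 240 and 306 CPM in HOXA9 OFF, most of it Cpa3. The neutrophil and mast cell sums of both perturbed groups lay above control, and the macrophage sum of HOXA9 OFF did so. The mast cell genes did not move together in HOXA9 OFF. Cpa3 had 204.3 and 276.3 CPM there, against 158.2 and 128.2 CPM in control. Mcpt8 went the other way, at 24.99 and 21.95 CPM against 34.8 and 32.63 CPM, and Ms4a2 overlapped control. None of these genes was called between HOXA9 OFF and control. The part of the cells behind these marker sums in the members' values was not tested. In bulk RNA, a change in the share of cells that express a gene cannot be told apart from a change in its RNA per cell.

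The activating receptors have little signalling capacity of their own. Their signal passes through the FcR gamma chain, the product of Fcer1g, whose tail carries an immunoreceptor tyrosine-based activation motif (ITAM). Src-family kinases phosphorylate the paired ITAM tyrosines, and Syk then docks on them through its SH2 domains. Tyrobp encodes DAP12, an ITAM adaptor of the same kind that serves TREM, CLEC5A and CD300 family receptors rather than the classical Fc gamma receptors. Fcgr2b, the only inhibitory member, carries an immunoreceptor tyrosine-based inhibition motif (ITIM) in its own tail and recruits the inositol phosphatase SHIP1. In progenitors, the proteins of Fcgr3 and Fcgr2b (CD16 and CD32) are read by the antibody that sets GMPs apart from other progenitors.

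The coding sequences of these signalling motifs are shown because they divide the members into signal carriers and the inhibitor. They were read from the NCBIM37 (mm9) genome through the GENCODE M1 transcripts, 5′ to 3′ on the coding strand, with the tyrosine codons in capitals. The Fcer1g ITAM spanned codons 65 to 79 of 86 and lay in 2 exon pieces within chr1:173160020-173160203 on the minus strand. The Tyrobp ITAM spanned codons 92 to 106 of 114, also in 2 exon pieces, within chr7:31200689-31202401 on the plus strand. The Fcgr2b ITIM spanned codons 317 to 322 of 340 in 1 exon, at chr1:172891202-172891219 on the minus strand.

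Fcer1g ITAM: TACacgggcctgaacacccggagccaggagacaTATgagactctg

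Tyrobp ITAM: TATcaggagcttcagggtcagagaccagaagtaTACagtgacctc

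Fcgr2b ITIM: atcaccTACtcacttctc

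Both ITAMs ran over 45 bases with the same spacing of the tyrosine codons. Among the 7 coding sequences the ITAM pattern was found in Fcer1g and Tyrobp only, 1 time each. The shorter ITIM pattern also matched by its letters in Fcgr1, Fcgr4 and Fcer1g, and a match of letters is not a functional site.

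The genes of 3 receptors and the gamma chain lie together on chromosome 1. Fcgr2b (chr1:172890689-172906678, minus strand), Fcgr4 (chr1:172949051-172959892, plus strand) and Fcgr3 (chr1:172981300-172995066, minus strand) were separated by 42.4 kb and 21.4 kb, and Fcer1g (chr1:173159703-173164496, minus strand) lay a further 164.6 kb away. Fcgr1 (chr3:96086832-96098179, minus strand), Tyrobp (chr7:31198807-31202596, plus strand) and Syk (chr13:52678542-52744161, plus strand, named Sykb in that annotation) lie elsewhere. Fcgr3 and Fcgr2b are close paralogs. Of all stretches of 50 bases in their coding transcripts, 10.2% in Fcgr3 and 10.1% in Fcgr2b were identical between these genes, while the other 5 members shared no such stretch with any gene. Reads from the shared stretches would align to both genes, so the counts of this pair are somewhat less certain than the others.

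**Figure D1:**
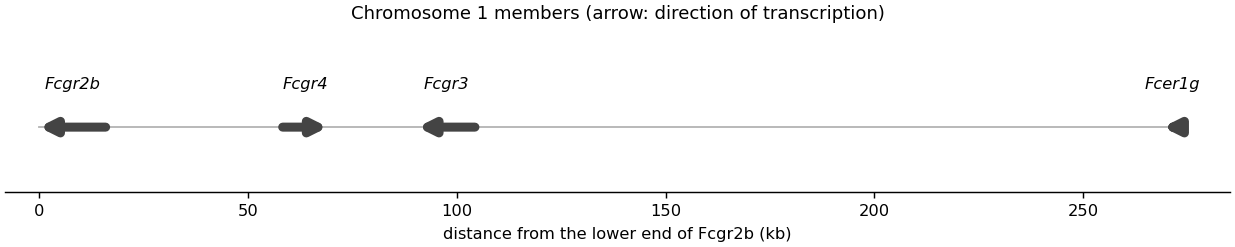
Map of the 4 chromosome 1 members, drawn to scale as distance in kb from the lower end of Fcgr2b, with arrows giving the direction of transcription. Fcgr2b, Fcgr4 and Fcgr3 sit next to each other, with Fcgr4 on the opposite strand, and Fcer1g lies 164.6 kb beyond Fcgr3.

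Stretches of 60 bases just before the RefSeq transcription start (GRCm38.p6) are shown for the receptors, the gamma chain and Syk. Most of these transcripts differ between HOXA9 OFF and control. Tyrobp also differs but is left out, because the promoter set used holds no entry for it. Capitals mark GAGGAA, the core recognised by the myeloid factor PU.1, or its complement TTCCTC, and TTNNGCAA, a form of the C/EBP motif, searched on both strands. Fcgr1 is at chr3:96293970-96294029 (minus), Fcgr3 at chr1:171059404-171059463 (minus, first of its start sites), Fcgr4 at chr1:171018866-171018925 (plus), Fcgr2b at chr1:170976072-170976131 (minus), Fcer1g at chr1:171234350-171234409 (minus) and Syk at chr13:52596822-52596881 (plus, the second of its start sites, shown because it holds a match).

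Fcgr1 promoter: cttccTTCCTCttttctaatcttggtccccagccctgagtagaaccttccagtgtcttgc

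Fcgr3 promoter: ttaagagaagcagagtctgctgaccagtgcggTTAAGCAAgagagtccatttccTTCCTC

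Fcgr4 promoter: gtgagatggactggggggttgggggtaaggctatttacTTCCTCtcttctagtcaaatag

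Fcgr2b promoter: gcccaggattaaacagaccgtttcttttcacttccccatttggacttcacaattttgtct

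Fcer1g promoter: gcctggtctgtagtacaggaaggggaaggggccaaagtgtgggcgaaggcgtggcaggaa

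Syk promoter: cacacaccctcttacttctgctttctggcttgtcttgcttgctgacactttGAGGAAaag

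All 3 activating receptors held TTCCTC in this window, on the strand opposite to GAGGAA, ending 50 bases (Fcgr1), 17 bases (Fcgr4) and 1 base (Fcgr3) before the start. Fcgr3 also held the C/EBP form, 28 to 21 bases before its start. Fcgr2b, Fcer1g and the first start site of Syk held neither motif in the 250 bases before the start. Of 32851 mouse promoters, 6.08% held GAGGAA in the last 60 bases and 23.3% in 250 bases, and 1.74% and 9.56% held TTNNGCAA. These matches describe letters only, and no binding was measured here.

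To compare genes with each other, CPM was divided by the length of the longest coding transcript (RPKM). In control, the gamma chain and DAP12 transcripts were the most abundant, at 244 RPKM for Fcer1g (204 and 284 in the 2 libraries) and 198 RPKM for Tyrobp (194 to 202). Fcgr3 followed at 63.6 RPKM, then Fcgr2b at 42.3, Syk at 36.1, Fcgr1 at 3.95 and Fcgr4 at 0.771 RPKM, and no neighbours in this order overlapped. With all annotated exons as the length, Fcgr2b and Syk changed places in control. In CAF-1 OFF the order was the same, but Fcgr3 (80.6 RPKM) and Fcgr2b (78.4 RPKM) overlapped, as did Fcer1g (212 RPKM) and Tyrobp (145 RPKM). In HOXA9 OFF, Tyrobp came first at 553 RPKM, above Fcer1g at 305 RPKM without overlap, and Fcgr1 (10.3 RPKM) and Fcgr4 (9.85 RPKM) overlapped. Thus Fcgr3 and Fcgr2b supplied most receptor transcript in every group. Of the summed RPKM of the 4 receptors, Fcgr3 made up 59.1% and 55.7% in control, 50.7% and 45.2% in CAF-1 OFF and 62.1% and 60.8% in HOXA9 OFF. Fcgr2b made up 37.5% and 39.1% in control, 44.9% and 49.4% in CAF-1 OFF, where it exceeded Fcgr3 in replicate 2, and 32.5% and 32.1% in HOXA9 OFF. All annotated exons of Fcgr2b cover 3849 bases, against 1603 in its longest coding transcript (Fcgr3 1741 against 1347). These shares, and the overlap of Fcgr3 and Fcgr2b in CAF-1 OFF, therefore depend on the length used. Fcgr4 made up 0.936% and 0.412% in the control libraries and 3.56% and 2.53% in the HOXA9 OFF libraries.

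**Figure D2:**
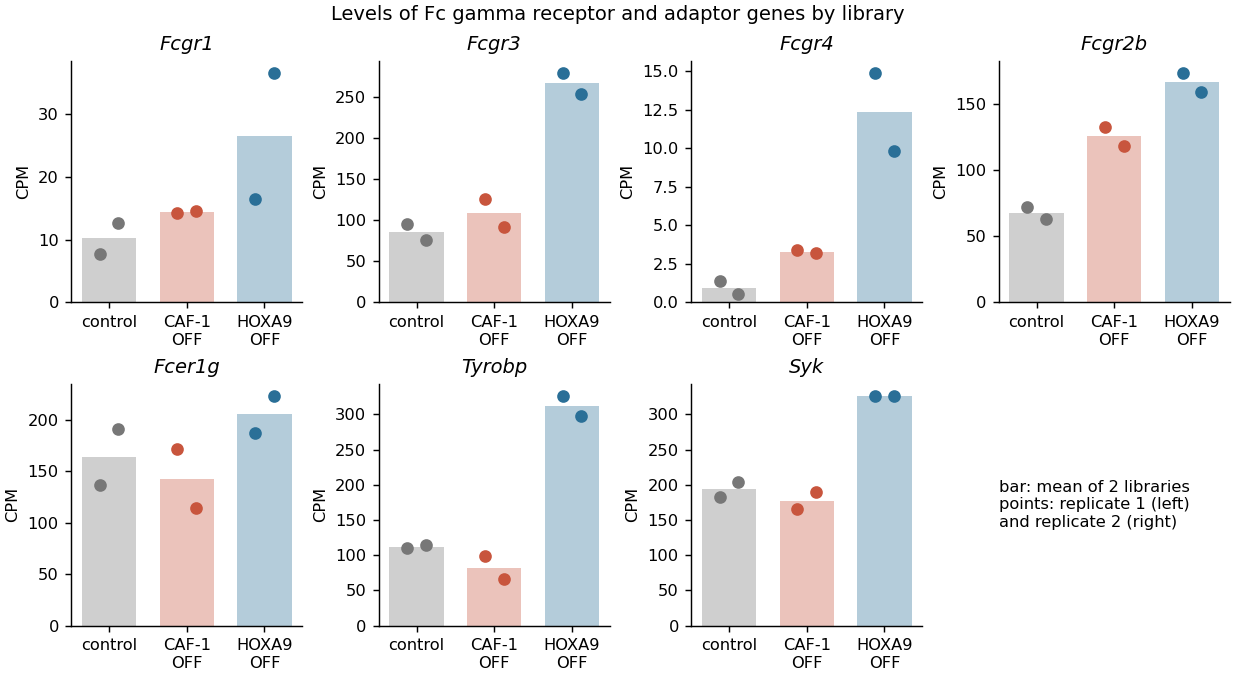
Level of each of the 7 genes in CPM (linear axes from 0, a separate scale per gene) in control, CAF-1 OFF and HOXA9 OFF, with bars for the mean of 2 libraries and points for replicate 1 (left) and replicate 2 (right). The HOXA9 OFF points lie above both control points for every gene except Fcer1g, while in CAF-1 OFF only Fcgr1, Fcgr4 and Fcgr2b lie above control and Tyrobp lies below.

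The first comparison asked how loss of HOXA9 activity, which lets iGMPs differentiate, changed these transcripts. Of the 7, 6 were called higher in HOXA9 OFF than in control (edgeR quasi-likelihood test, Benjamini-Hochberg FDR under 0.05 with a minimum fold of 1.5) and none lower, against 13% of the 12460 genes called higher and 8.97% called lower. The median log2 fold change was 1.38 over the members and -0.003 over all genes tested.

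Among the activating receptors, Fcgr4, which binds the IgG2 subclasses of the mouse, had the largest fold change of the 7. It had 1.41 and 0.523 CPM in control (36 and 9 reads) and 14.9 and 9.82 CPM in HOXA9 OFF (309 and 162 reads). The groups lay far apart, but the control level rested on few reads. Fcgr4 rose 12.3-fold (log2 3.62 ± 0.46 SE, 95% interval 2.52 to 4.71, edgeR FDR 0.00249). The log2 fold change was 4.54 without control replicate 1 and 3.13 without control replicate 2, and it was called in both.

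Fcgr3, the low-affinity receptor CD16 and the most abundant receptor transcript per length in control and HOXA9 OFF, had 95.7 and 75.6 CPM in control and 279 and 253 CPM in HOXA9 OFF. Both HOXA9 OFF libraries were far above either control library. Fcgr3 rose by 1.63 ± 0.19 (log2, SE; edgeR FDR 0.00185).

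Fcgr1, the high-affinity receptor CD64, had 7.74 and 12.7 CPM in control and 16.6 and 36.6 CPM in HOXA9 OFF. The groups did not overlap, but HOXA9 OFF replicate 2 was far above replicate 1. The log2 fold change was 1.38 ± 0.40 (SE, 95% interval 0.44 to 2.32, edgeR FDR 0.0392). Without HOXA9 OFF replicate 2 it was 0.71 and no longer called (FDR 0.18), and it was also lost without control replicate 1 (1.05, FDR 0.166), without control replicate 2 (1.78, FDR 0.0586) without either CAF-1 OFF library (FDR 0.051 and 0.0516) and in a fit of the 4 libraries compared (FDR 0.0525). HOXA9 OFF replicate 2 also held 291 reads of C1qb and 99 of C1qc, complement genes of macrophages, against 3 and 1 reads in replicate 1 and at most 4 and 0 in the other libraries. The part of these macrophage genes' cells in the Fcgr1 value was not tested.

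The inhibitory receptor Fcgr2b had 72.3 and 63.2 CPM in control and 174 and 159 CPM in HOXA9 OFF, with no overlap. It rose by 1.30 ± 0.12 (log2, SE; edgeR FDR 0.00102), so inhibitory and activating receptor transcripts rose together.

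Of the adaptors, Tyrobp passed the test and Fcer1g did not. Fcer1g had 137 and 192 CPM in control and 187 and 224 CPM in HOXA9 OFF. The groups overlapped, and the log2 fold change of 0.32 ± 0.23 (SE, 95% interval -0.23 to 0.88) did not pass the test (edgeR FDR 0.341). Tyrobp had 110 and 114 CPM in control and 327 and 297 CPM in HOXA9 OFF, and rose by 1.48 ± 0.19 (log2, SE; edgeR FDR 0.00244). Syk had 183 and 205 CPM in control and 326 and 327 CPM in HOXA9 OFF, and rose by 0.75 ± 0.11 (log2, SE; edgeR FDR 0.00432). Syk thus rose 1.69-fold, the smallest of the 6 called changes, and was not called at 2-fold and FDR 0.01.

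**Figure D3:**
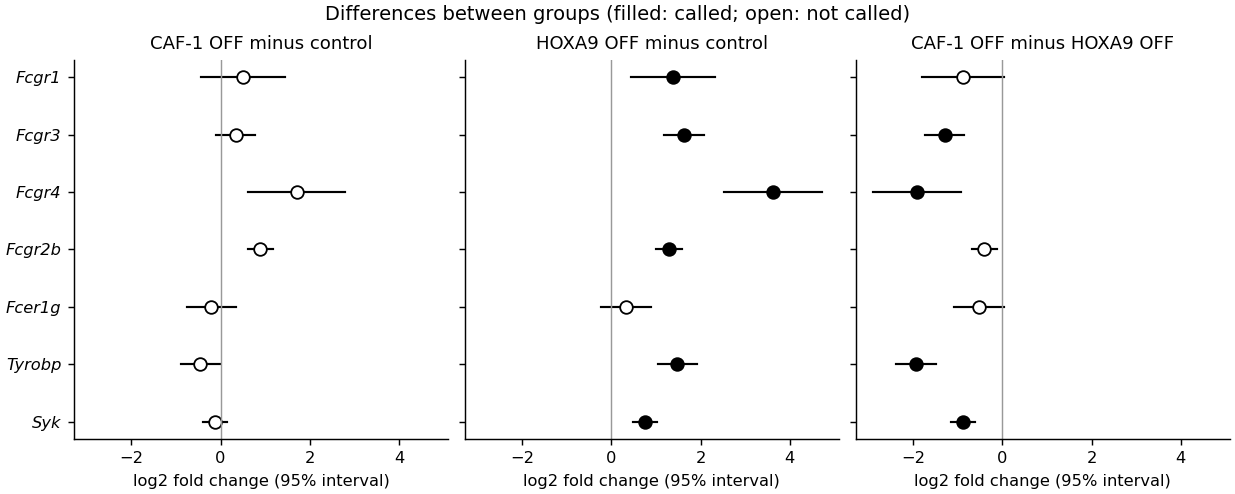
Log2 fold change of each gene with its 95% interval in the 3 comparisons, with filled points for genes called at FDR under 0.05 and a minimum fold of 1.5. No point is filled for CAF-1 OFF minus control, 6 of 7 are filled to the right for HOXA9 OFF minus control, and 4 of 7 are filled to the left for CAF-1 OFF minus HOXA9 OFF.

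The second comparison asked how CAF-1 suppression changed the same transcripts while HOXA9 stayed active. Of the 7 members, 0 were called between CAF-1 OFF and control by edgeR, against 0.0321% of all genes tested (4 genes). At an unadjusted p under 0.05 there were 3, Fcgr2b, Fcgr4 and Tyrobp, against 10.7% of all genes, and DESeq2 called 2, Fcgr2b and Fcgr4, against 1.54% of all genes (192 genes). The median log2 fold change of the members was 0.34, against -0.004 over all genes.

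Fcgr2b stood at 133 and 119 CPM in CAF-1 OFF, against 72.3 and 63.2 CPM in control. The CAF-1 OFF values were 1.85-fold higher in the fit, without overlap, and lay nearer to HOXA9 OFF (174 and 159 CPM) than to control. Its log2 fold change was 0.89 ± 0.12 (SE, 95% interval 0.61 to 1.18) with an edgeR FDR of 0.0976, and its p ranked 19 among the 12460 genes. DESeq2 gave an FDR of 4.11e-07, and edgeR without the filter on low counts 2.16e-05, so the call was made under other settings. The fit without the filter called 1.9% of 19883 genes.

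Fcgr4 stood at 3.38 and 3.19 CPM in CAF-1 OFF, from 65 and 63 reads, against 1.41 and 0.523 CPM in control. The groups did not overlap, and the log2 fold change was 1.71 ± 0.46 (SE, 95% interval 0.62 to 2.79, edgeR FDR 0.288). It was 2.64 without control replicate 1 and 1.22 without control replicate 2, not called in either. DESeq2 gave an FDR of 0.0371 and edgeR without the filter 0.0037. Fcgr1 stood at 14.3 and 14.6 CPM, just above its control values of 7.74 and 12.7 CPM (log2 0.51 ± 0.40 SE, edgeR FDR 0.71), with 0.19 without control replicate 1 and 0.91 without control replicate 2. Fcgr3 stood at 126 and 91.3 CPM and overlapped control (log2 0.34 ± 0.18 SE, edgeR FDR 0.572), with 0.09 and 0.57 without CAF-1 OFF replicate 1 and 2, and 0.53 and 0.19 without control replicate 1 and 2. None of these was called.

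Tyrobp, Fcer1g and Syk had fitted differences below 0. Tyrobp had 98.2 and 65.7 CPM in CAF-1 OFF, under both control values of 110 and 114 CPM, with a log2 fold change of -0.45 ± 0.18 (SE, 95% interval -0.89 to -0.01, edgeR FDR 0.453). It was -0.77 without CAF-1 OFF replicate 1 and -0.17 without CAF-1 OFF replicate 2. Fcer1g had 171 and 114 CPM and Syk 165 and 190 CPM, both overlapping control, with log2 fold changes of -0.20 ± 0.23 and -0.13 ± 0.11 (SE; edgeR FDR 0.801 and 0.742). The 95% intervals were -0.76 to 0.35 for Fcer1g and -0.39 to 0.14 for Syk. The sign for Fcer1g turned when CAF-1 OFF replicate 2 (0.077) or control replicate 2 (0.068) was left out.

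The third comparison set the 2 perturbations against each other. In CAF-1 OFF, 4 members were called lower than they were in HOXA9 OFF, against 12.6% of all genes, and none higher, against 9.56% of all genes. For each of the 7 members both CAF-1 OFF libraries lay below both HOXA9 OFF libraries. Tyrobp had the largest difference, at 98.2 and 65.7 CPM in CAF-1 OFF and 327 and 297 CPM in HOXA9 OFF (log2 -1.93 ± 0.19 SE, edgeR FDR 0.00116). Fcgr4 was lower by a log2 of -1.91 ± 0.42 (SE, edgeR FDR 0.0161), and this call was lost without either CAF-1 OFF library (FDR 0.0612 and 0.0592) or without HOXA9 OFF replicate 1 (FDR 0.0902). Fcgr3 was lower by -1.29 ± 0.19 and Syk by -0.88 ± 0.11 (log2, SE; edgeR FDR 0.00395 and 0.00283).

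Fcgr2b differed least between the perturbations. Its log2 difference was -0.41 ± 0.12 (SE, edgeR FDR 0.0419), a fold of 1.32 that stayed under the minimum of 1.5. Fcgr1 (-0.88 ± 0.39, FDR 0.134) and Fcer1g (-0.53 ± 0.23, FDR 0.136) did not pass the test. The difference of Fcgr1 was -0.20 without HOXA9 OFF replicate 2 (FDR 0.714). Fcgr1 was called without HOXA9 OFF replicate 1 (-1.33, FDR 0.0351), and without the filter on low counts (FDR 0.00544). These 3 comparisons share libraries, so their values for a gene are not independent of each other.

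Because activating and inhibitory receptors compete for the same IgG, their transcript ratio was computed within each library, where the library size cancels. Summed reads of Fcgr1, Fcgr3 and Fcgr4 divided by reads of Fcgr2b gave 1.45 and 1.41 in control, 1.08 and 0.919 in CAF-1 OFF and 1.79 and 1.88 in HOXA9 OFF. The means were 1.43 ± 0.03, 1.00 ± 0.12 and 1.84 ± 0.07 (SD, n = 2). The 3 groups did not overlap, with CAF-1 OFF below and HOXA9 OFF above control. An exact two-sided permutation test of 2 against 2 libraries cannot give a p under 0.333, so these ratios stand as values. The ratios were also scaled by the length of the longest coding transcript, so they depend on the length used for Fcgr2b. The order was the same, at 1.61 ± 0.08 for control, 1.13 ± 0.14 for CAF-1 OFF and 2.10 ± 0.02 for HOXA9 OFF (SD, n = 2). Fcgr3 to Fcgr2b alone, the paralog pair, gave 1.32 and 1.198 in control, 0.950 and 0.769 in CAF-1 OFF and 1.61 and 1.59 in HOXA9 OFF.

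The receptors were also set against the shared gamma chain. Reads of all 4 receptors divided by reads of Fcer1g gave 1.29 and 0.793 in control, 1.61 and 1.99 in CAF-1 OFF and 2.59 and 2.05 in HOXA9 OFF. Both perturbed groups lay above control, without overlap. For the activating receptors alone, which use the chain, the ratio was 0.764 and 0.464 in control, 0.838 and 0.955 in CAF-1 OFF and 1.66 and 1.34 in HOXA9 OFF. Per length, Fcer1g transcript exceeded the summed activating receptors 3.67-fold (SD 1.35) in control, 2.37-fold (SD 0.19) in CAF-1 OFF and 1.41-fold (SD 0.25) in HOXA9 OFF. The ratio of Tyrobp to Fcer1g reads was 0.799 and 0.596 in control, 0.573 and 0.576 in CAF-1 OFF and 1.75 and 1.33 in HOXA9 OFF. Only HOXA9 OFF thus had more reads of Tyrobp than of Fcer1g.

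**Figure D4:**
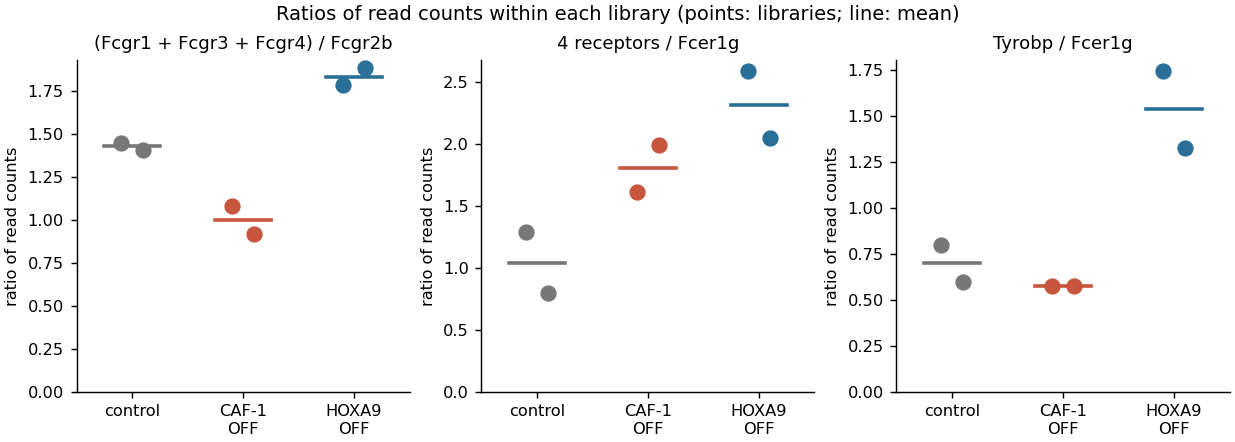
Ratios of read counts within each library for control, CAF-1 OFF and HOXA9 OFF, with points for libraries and lines for group means, on linear axes from 0. Activating to inhibitory receptor reads lie lowest in CAF-1 OFF (0.919 and 1.08) and highest in HOXA9 OFF (1.79 and 1.88), and both perturbed groups lie above control for the 4 receptors against Fcer1g.

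The wider pathway was described with 87 further genes in 6 lists, of which 74 were tested. In HOXA9 OFF against control, 39 were called higher and 7 lower, against 13% and 8.97% of all genes tested, and the median log2 difference was 0.76. Of the 74, 5 passed the filter on low counts through 1 group alone. Trem2, Clec4n, Lilrb4 and Fcrls did so through HOXA9 OFF, so that their inclusion depended on the group where they are high. Pigr did so through CAF-1 OFF (15 and 14 reads), with 11 and 41 reads in control and 0 in HOXA9 OFF. Among the other 69, 35 were called higher and 6 lower. Between CAF-1 OFF and control, edgeR called 0 of the 74 and DESeq2 called 3 (1.54% of all genes), and 13 had an unadjusted p under 0.05 (10.7% of all genes). In CAF-1 OFF against HOXA9 OFF, 37 were called lower and 7 higher, against 12.6% and 9.56% of all genes. The 37 include Trem2, Clec4n and Lilrb4 and the 7 include Pigr, each of which passed the filter through 1 group alone.

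Of the 30 tested genes of the signalling chain downstream of the receptors, 15 rose and 2 fell in HOXA9 OFF. Here and in the lists that follow, 13% of all genes were called higher and 8.97% lower. Fgr, a Src-family kinase of myeloid cells, had 6.09 and 3.89 CPM in control, 6.86 and 5.67 CPM in CAF-1 OFF and 40.7 and 20.9 CPM in HOXA9 OFF (2.61 ± 0.37 SE, edgeR FDR 0.00369). Lcp2, the scaffold SLP-76, had 38.8 and 25.3 CPM in control and 161 and 149 CPM in HOXA9 OFF (2.27 ± 0.32 SE, edgeR FDR 0.00365). Pik3r5, a regulatory subunit of PI3-kinase gamma, rose by 3.34 ± 0.31 and the scaffold Blnk by 2.89 ± 0.50 (log2, SE; edgeR FDR 0.00102 and 0.007). For Blnk, as for Fcgr1, HOXA9 OFF replicate 2 (17.3 CPM) was well above replicate 1 (6.37 CPM). The 2 genes that fell were the kinase Fyn (-1.04 ± 0.22, edgeR FDR 0.0138) and the phospholipase Plcg1 (-0.86 ± 0.14, edgeR FDR 0.00532). Both were named after their values were seen. Its paralog Plcg2, also named after its values were seen, was not called, at 432 and 417 CPM in control and 390 and 420 CPM in HOXA9 OFF (-0.07 ± 0.10 SE, edgeR FDR 0.625).

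Of the 13 negative regulators, 3 rose and 1 fell. The phosphatase Ptpn22 (1.67 ± 0.16), the Csk-binding adaptor Pag1 (1.26 ± 0.18) and the phosphatase Ubash3b (1.03 ± 0.11) rose, and the adaptor Dok2 fell by 0.85 (SE 0.22) on the log2 scale, with edgeR FDR from 0.00119 to 0.0258. Inpp5d, which encodes SHIP1, the phosphatase that Fcgr2b recruits, was not called and was looked up for that role. It had 212 and 189 CPM in control, 201 and 256 CPM in CAF-1 OFF and 251 and 246 CPM in HOXA9 OFF (HOXA9 OFF against control 0.31 ± 0.14 SE, edgeR FDR 0.138).

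Receptors that signal through Tyrobp or Fcer1g moved in both directions in HOXA9 OFF, with 6 of 9 tested called higher and 2 lower, or 4 and 2 of 7 without Trem2 and Clec4n. Cd300lb, a DAP12-coupled receptor, had 18.2 and 21.3 CPM in control and 101 and 119 CPM in HOXA9 OFF (2.48 ± 0.14 SE, edgeR FDR 0.00028). Clec5a, also coupled to DAP12, had 71.7 and 48.2 CPM in control, 114 and 114 CPM in CAF-1 OFF and 233 and 219 CPM in HOXA9 OFF. Its log2 fold change was 1.91 ± 0.19 in HOXA9 OFF (SE, edgeR FDR 0.00114) and 0.92 ± 0.18 in CAF-1 OFF, where it was not called (FDR 0.178). The genes called lower were Clec4e and Clec4d, the C-type lectins Mincle and MCL that use the gamma chain. Clec4e had 112 and 113 CPM in control, 122 and 89.6 CPM in CAF-1 OFF and 35.5 and 58.1 CPM in HOXA9 OFF (-1.27 ± 0.25 SE, edgeR FDR 0.0108), and Clec4d fell by 1.05 (SE 0.25, edgeR FDR 0.0226).

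Other receptors with ITIMs, many of which act through the phosphatases SHP-1 and SHP-2, were almost all higher in HOXA9 OFF, with 12 of 13 tested called higher and 1 lower, or 11 and 1 of 12 without Lilrb4, which had 0 reads in control and CAF-1 OFF. Clec4a2, a C-type lectin, had 3.42 and 1.34 CPM in control, 6.03 and 6.18 CPM in CAF-1 OFF and 128 and 89.1 CPM in HOXA9 OFF (5.45 ± 0.39 SE, edgeR FDR 0.000475). Siglece, a sialic acid receptor, had 5.93 and 1.92 CPM in control, 11.3 and 13.0 CPM in CAF-1 OFF and 113 and 61.5 CPM in HOXA9 OFF (4.42 ± 0.51 SE, edgeR FDR 0.00185). Lilrb3, the gene of the paired receptor PIR-B, rose by 4.09 ± 0.31 and Ceacam1 by 3.01 ± 0.17 (log2, SE; edgeR FDR 0.000561 and 0.000269). Cd72, best known from B cells, was the one that fell, from 14.8 and 28.0 CPM in control to 0.627 and 1.33 CPM in HOXA9 OFF (-4.47 ± 0.50 SE, edgeR FDR 0.00173).

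Among other Fc receptor genes, 3 of 5 tested rose and 1 fell, or 2 and 0 of 3 without Fcrls and Pigr, and the 4 tested genes of the list of further adaptors included no call. They are named here because they are few. Fcgrt, the neonatal Fc receptor that recycles IgG, had 1.85 and 2.55 CPM in control and 8.15 and 8.43 CPM in HOXA9 OFF (1.92 ± 0.31 SE, edgeR FDR 0.0052). Fcrl1 and Fcrls, Fc receptor-like genes, also rose, Pigr, the polymeric immunoglobulin receptor, fell, and Trim21, the cytosolic Fc receptor, was the one without a call. Hcst in the adaptor list encodes DAP10, which has no ITAM. Fcer1a, the IgE-binding chain that pairs with Fcer1g in mast cells, was the lowest of the 4 mast cell and basophil markers. It had 0 reads in control and CAF-1 OFF and 1 and 2 reads in HOXA9 OFF, at or under the floor of 3 reads.

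**Figure D5:**
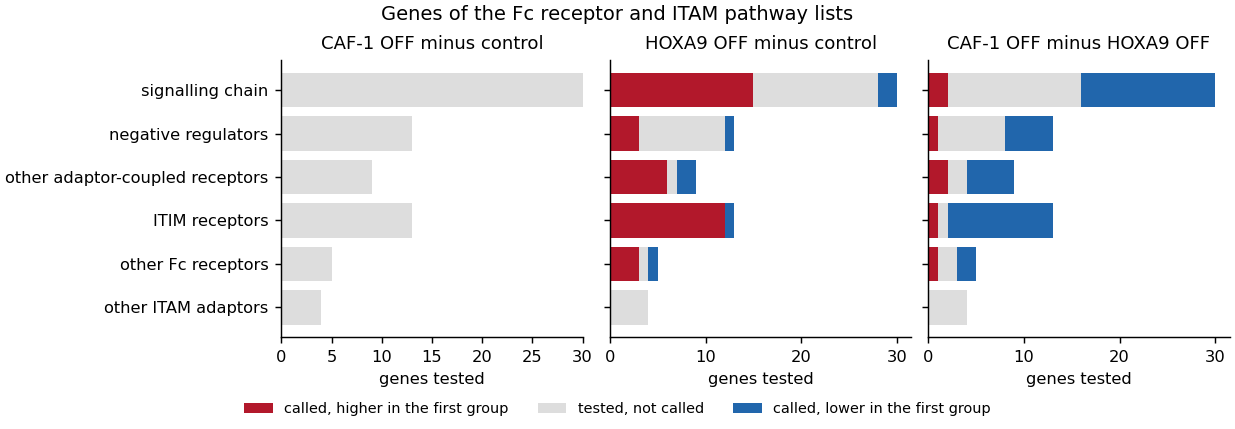
Number of tested genes in each of 6 pathway lists that were called higher (red), called lower (blue) or not called (grey) in the 3 comparisons. No gene is called for CAF-1 OFF minus control, and the ITIM receptors have 12 of 13 called higher for HOXA9 OFF minus control, 1 of them (Lilrb4) tested only through its HOXA9 OFF reads.

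The pattern of each member over the 6 libraries was compared with those of 9615 genes with a mean of at least 5 CPM, by the root mean square difference of centred log2 CPM (small values mean alike). The values were centred but not scaled, so the size of a gene's changes enters the measure. The points share libraries and depth, and the measure is a description. Tmsb4x (0.084), the actin-binding thymosin beta-4, Sfpi1 (0.098), the gene of PU.1, and Rgs18 (0.113) were nearest to Fcgr3. Sfpi1 had 187 and 155 CPM in control, 220 and 185 CPM in CAF-1 OFF and 560 and 440 CPM in HOXA9 OFF. Ccnd3 (0.104), a D-type cyclin, was nearest to Fcgr2b and Naaa (0.116) to Fcgr1. Cd79b (0.051), itself an ITAM-bearing chain, was nearest to Fcer1g, Tnfaip8l2 (0.1) to Tyrobp and Cyp4f16 (0.042) to Syk. Among the members themselves, Fcer1g and Syk were closest (0.312), followed by Fcgr3 and Tyrobp (0.368) and by Fcgr3 and Fcgr2b (0.384). Fcer1g and Fcgr4 were farthest apart (1.26), and these had the smallest and the largest fold change of the members in HOXA9 OFF against control.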

How the data were processed

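Per the labels and the study's methods, RNA was extracted with a column kit and libraries were made with a directional NEB kit. The authors aligned reads with STAR to mouse mm9 and assigned them to genes with HTSeq-count. The deposited values are whole raw counts for each gene symbol, not normalized. The annotation and strand setting of the counting are not given in the sources used here. Reads of 5 tally lines were left out (5.95 to 8.26 reads without a feature per 100 gene reads).

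The analysis used edgeR 4.0.16 (limma 3.58.1, R 4.3.3). Genes passing filterByExpr were scaled by TMM (factors 0.954 to 1.03) and fitted by the quasi-likelihood model, 1 mean per group, over all 6 libraries. Genes were called at FDR under 0.05 with a minimum fold of 1.5, adjusted over all genes tested. Standard errors derive from the F statistic. A floor of 3 reads equals 0.118 to 0.182 CPM and covers counting error only. DESeq2 1.42.0 was an alternative. The fitting was tested on simulated data.

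Syk was matched to Sykb, Spi1 to Sfpi1, Pirb to Lilrb3 and Adgre1 to Emr1 through synonyms. Members, lists and tests were chosen with earlier results of these data known. Named pathway genes were the called genes of each list, at most 6, by absolute fold change with a mean of at least 5 CPM, and some of these are given. Others are marked as chosen after their values were seen. Near-neighbour genes were the 3 nearest to each member. Replicates differed beyond sampling noise (chi-square per degree of freedom 20.5 to 27.6). Some genes that these rules name are not reported here.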

Additional observations from a re-analysis of the deposited data

How the results depend on the processing

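The counts of called members and pathway genes were recomputed under other scalings, filters, tests and thresholds and without each library. For CAF-1 OFF against control, 0 members and 0 pathway genes became 2 and 5 without the filter on low counts, 2 and 3 with DESeq2, and 1 (Fcgr2b) and 1 with replicate numbers crossed as a block, a fit added after seeing the data. Over all genes the 4 calls became 378 of 19883, 192 of 12460 and 71 of 12460 in these fits. Leaving out any 1 library gave 0 of both, and 0 to 10 over all genes. At 2-fold and FDR 0.01, for HOXA9 OFF against control 6 members became 4 (Fcgr1 and Syk lost), 46 pathway genes became 29 and 2740 genes in all became 987, and for CAF-1 OFF against HOXA9 OFF 4 members became 2 (Fcgr4 and Syk lost), 44 pathway genes became 23 and 2755 genes in all became 948. Without 1 library, called members ranged from 5 to 6 (HOXA9 OFF against control) and from 3 to 4 (CAF-1 OFF against HOXA9 OFF), and pathway genes from 37 to 49 and from 33 to 42, while all called genes ranged from 1602 to 2840 and from 1711 to 2718. Fcer1g in CAF-1 OFF against control ranged from -0.529 to 0.077 without 1 library, turning sign without CAF-1 OFF replicate 2 (0.077) or control replicate 2 (0.068). The cause of these changes was not tested. Deviations of same-numbered libraries from their group means correlated at -0.178 (CAF-1 OFF and control), 0.456 (HOXA9 OFF and control) and 0.0329 (CAF-1 OFF and HOXA9 OFF), so the numbers were not taken as pairs. With the replicate block the called members were 0, 6 and 4 and the pathway genes 0, 46 and 42, with 2, 2680 and 2684 called over all 12460 genes. With 2 libraries per group, changes as small as those of Fcer1g lay within the intervals given, and the depth behind Fcgr4 in control (36 and 9 reads) limits its fold change.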
